A study of Homo sapiens with 18 samples.

Results

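COLQ, TTC27, RO60, STAMBP, RGS16, UBAP2L and CLMN are 7 of the 62703 genes listed in each count table, and they were selected on the values described here. Each was higher in the libraries with more NEAT1 in all 3 myeloma line labels, so their changes between the gapmeR labels are given as a description with no test. NEAT1 aside, 61 of the 19934 genes tested in every line had an adjusted p under 0.05 in that direction in each line, and the 7 are among these 61, while 6 genes passed against NEAT1 in every line. With 1 library left out the 61 became 32 without LP1 SCR A, 30 without LP1 SCR B and 39 without LP1 gN1E B. STAMBP was no longer among them with the replicate letter as a block and when any LP1 library other than SCR D was left out, nor TTC27 without LP1 SCR A, SCR B or gN1E A, nor RGS16 without AMO1 SCR D, gN1E C or gN1E D or LP1 gN1E B. COLQ, RO60, UBAP2L and CLMN were among them in all 26 alternatives. The alternatives refit the libraries on which the genes were chosen, so nothing is read from this. UBAP2L and CLMN also belong to the target list that the study drew up partly from the AMO1 libraries. RNA was sequenced from the human multiple myeloma cell lines AMO1, NCI-H929 (labelled H929) and LP1. In each line 3 libraries are labelled SCR and 3 gN1E. SCR stands for the scrambled g#SCR and gN1E for the NEAT1 LNA-gapmeR g#N1_E, both added to the medium at 5 µM for 48 h without a transfection reagent. All groups are unmodified lines that received a gapmeR, so none is untreated, and 1 gapmeR against NEAT1 was used.

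NEAT1 is a long non-coding RNA that is retained in the nucleus, where its long isoform scaffolds the protein-rich bodies called paraspeckles. LNA-gapmeRs are antisense oligonucleotides with locked nucleic acid ends and a DNA core. RNase H cuts RNA where such an oligonucleotide pairs with it, and because the enzyme works in the nucleus, introns of unspliced transcripts can be cut too. The 7 genes have no shared pathway in textbook knowledge. RO60 and UBAP2L bind RNA, TTC27 and STAMBP serve protein assembly and turnover, RGS16 ends G protein signals, COLQ anchors an extracellular enzyme and CLMN is a membrane protein with an actin-binding type of domain.

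The level of NEAT1 went against the labels. In the libraries labelled AMO1 it was 75.7, 78.8 and 90.8 CPM (counts scaled to equal library size with TMM over the 18 libraries) under SCR and 473, 553 and 517 CPM under gN1E. In those labelled H929 it was 79.8, 72.7 and 79.1 CPM under SCR and 554, 464 and 542 CPM under gN1E. In those labelled LP1 it was 135, 173 and 189 CPM under SCR and 656, 667 and 829 CPM under gN1E. In each line every gN1E library lay above every SCR library (exact permutation test, two-sided, p = 0.1, which is the lowest value for groups of 3). The log2 fold change, always gN1E minus SCR, was 2.66 (SE 0.0744, adjusted p = 5.1e-13) in AMO1, 2.74 (SE 0.0683, adjusted p = 3.11e-14) in H929 and 2.14 (SE 0.190, adjusted p = 0.0269) in LP1. The p-values are from the quasi-likelihood test of edgeR, adjusted by Benjamini-Hochberg over all genes tested. In LP1 the edgeR call was lost without SCR B (2.17, adjusted p = 0.176), gN1E A (2.20, adjusted p = 0.111), gN1E B (2.19, adjusted p = 0.0886) or gN1E D (2.01, adjusted p = 0.0578), at nearly the same log2 fold change. The count tables name themselves with SCR and gN1E exchanged, and by those names NEAT1 was lower under gN1E. The libraries are named by their sample labels throughout, and "higher under gN1E" means higher in the libraries with more NEAT1.

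The libraries held between 28061606 and 69937229 counts. All 7 plasma cell markers were at 1 CPM or more in every library, while the summed level of the T cell markers was at most 28.2 CPM, that of the monocyte markers at most 9.56 CPM and that of the stromal and epithelial markers at most 16.8 CPM. The line labels were checked with immunoglobulin and translocation genes. FGFR3 was between 618 and 724 CPM in the libraries labelled LP1 and at most 1.48 CPM in those labelled H929, and NSD2 was between 1547 and 1705 CPM under LP1, between 214 and 267 CPM under H929 and between 165 and 210 CPM under AMO1. The V segment IGHV3-23 was between 1032 and 1957 CPM under H929, between 1434 and 2110 CPM under AMO1 and at 0 counts in each library under LP1. IGHG1 was between 593 and 781 CPM under H929 and at most 1.92 CPM under AMO1. NCI-H929 and LP1 are both known for a translocation that places NSD2 under the immunoglobulin heavy chain enhancers, so the libraries labelled H929 go against what is known of that line. They share an abundant V segment and abundant IGHA1 with those labelled AMO1. Of all genes, 13.8% differed 2-fold or more between H929 and AMO1, against 43.3% between LP1 and AMO1 and 39.6% between LP1 and H929. Whether the libraries labelled H929 and AMO1 are from unrelated lines was not tested. The count tables name themselves with H929 and LP1 exchanged. By those names the libraries labelled LP1, high in FGFR3 and NSD2, are H929, and those labelled H929 are LP1. Either name gives the libraries labelled H929 to a line known for the NSD2 translocation, while their NSD2 was close to that under AMO1. Exchanging the names leaves this conflict in place, and which names are right was not tested.

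The 7 gene bodies were compared with a stretch of NEAT1 around a window of 11 bases. That window was picked because the genes that carry it were, on average, higher under gN1E in AMO1 than genes of like span. The windows of 11 bases in NEAT1 were scored by the mean log2 fold change of the other genes that carry them on the transcribed strand, less the median of genes of like genomic span, with NEAT1 and the 7 genes left out. The best of 21761 windows in AMO1 was carried by 255 genes with a mean of 0.27. The same window was the best in H929 (275 genes, mean 0.31) and ranked 4 of 21813 in LP1 (281 genes, mean 0.11). With 5 bases on each side it gives a stretch of 21 bases, bases 3075 to 3095 of the gene, at chr11:65425848-65425868 on the plus strand of hg38, in which the window is in capitals. The sequence of the gapmeR is not given in the sources used here, so whether it pairs with this stretch was not tested. In the gene lines, which show where each gene carries its longest run in common with the stretch, that run is in capitals with 8 bases on each side, 5′ to 3′ on the transcribed strand.
NEAT1 stretch: accttTTGTGGTCACTgtaaa
TTC27: tcttttatCCTTTTGTGGTCACaagattct
COLQ: gctgataaTTTGTGGTCACTGaagaggtc
STAMBP: gtagaaacTTTGTGGTCACTGaagtcctt
UBAP2L: atttttaaTTTGTGGTCACTaccttaaa
CLMN intron 1: cacccaggTGTGGTCACTGTctctgtgc
CLMN exon 13: gggcattcTTTGTGGTCACTtgtaatgg
RO60: ccaagtttTCACTGTAAAtaatacaa
RGS16 exon 5: ccagtgttTTTTGTGGTatgagaac
RGS16 intron 3: agtaggagCCTTTTGTGtctgtctc

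The longest run was 14 bases in TTC27, 13 in COLQ and STAMBP, 12 in UBAP2L and CLMN, 10 in RO60 and 9 in RGS16. A run as long as that of TTC27 was found in 0.74% of the 2432 genes of 100 to 300 kb, and one as long as that of COLQ or STAMBP in 1.07% of the 5212 genes of 30 to 100 kb. For UBAP2L the share of its span class was 4.51%, for CLMN 11.8%, for RGS16 12.9% and for RO60 53.6%. On the opposite strand the longest runs of the 7 genes were between 7 and 10 bases.

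The runs lay mostly in introns of the canonical transcripts. The TTC27 run was at chr2:32784478-32784491 in intron 15, 156.4 kb from the gene's 5′ end, and the COLQ run at chr3:15496150-15496162 in intron 1. The UBAP2L run was at chr1:154258567-154258578 in intron 20. The STAMBP run, at chr2:73855630-73855642, was in the intron after canonical exon 7 and in an exon of other transcripts of the annotation. CLMN carried one run in intron 1 (chr14:95306490-95306501) and one in the untranslated part of exon 13, the last (chr14:95190649-95190660). The RGS16 runs were at chr1:182599291-182599299, in the untranslated part of exon 5, and at chr1:182602400-182602408, in intron 3, while the RO60 run, at chr1:193091514-193091523, lay past the end of the canonical transcript.

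**Figure D1:**
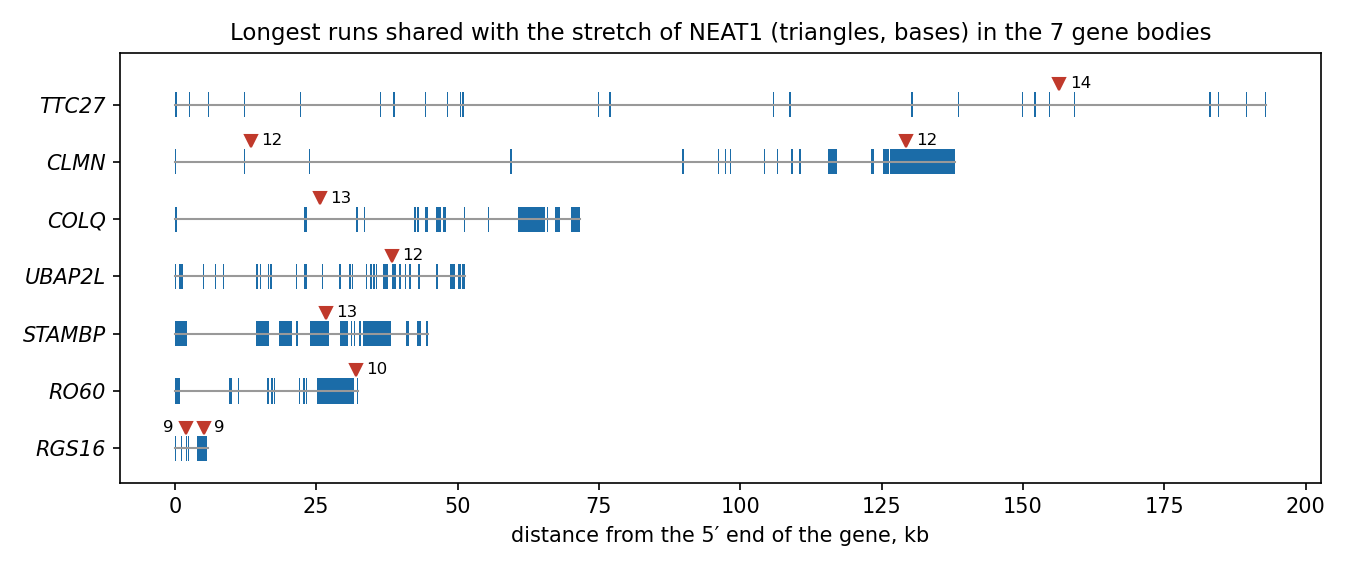
Map of the 7 gene bodies, drawn to scale from the 5′ end in kb along the x axis, with 1 gene per row, annotated exons as blue blocks and the longest runs shared with the NEAT1 stretch as red triangles with their length in bases. The runs of 12 to 14 bases fall in 5 of the 7 genes, and the 14-base run of TTC27 lies 156.4 kb into the gene.

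In all 3 lines, each of the 7 genes had all 3 gN1E libraries above all 3 SCR libraries. Over all tested genes that arrangement was found in 9.17% in AMO1, 12.2% in H929 and 7.42% in LP1. The share with an adjusted p under 0.05 and a higher level under gN1E was 1.64% in AMO1, 3.7% in H929 and 0.656% in LP1, and in all 3 lines together 0.311% of 19934 genes. The balance of higher and lower calls depended on the scaling. It was 377 higher and 96 lower in AMO1, 870 and 416 in H929, and 152 and 180 in LP1, and with library size only it was 309 and 295, 556 and 743, and 229 and 130. Since the genes were chosen for this arrangement, nothing is read from their count against these shares.

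RO60 (ENSG00000116747.13, chromosome 1 of hg38, 193059454 to 193091777, plus strand) codes for the ring-shaped Ro autoantigen, which binds Y RNAs and misfolded small RNAs. In AMO1 its level was 117, 126 and 116 CPM under SCR and 168, 174 and 179 CPM under gN1E. In H929 it was 141, 153 and 152 CPM under SCR and 192, 194 and 191 CPM under gN1E. The 2 labels stood apart in both lines, and the H929 libraries were the higher ones at either label. In LP1 the level was 78.3, 76.8 and 83.9 CPM under SCR and 108, 113 and 97.4 CPM under gN1E, so that even the gN1E libraries stayed below the AMO1 libraries labelled SCR. The log2 fold change was 0.54 (SE 0.0549) in AMO1, 0.36 (SE 0.0471) in H929 and 0.43 (SE 0.0569) in LP1, and RO60 had the narrowest range of log2 fold changes after RGS16.

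UBAP2L (ENSG00000143569.19, chromosome 1, 154220179 to 154271510, plus strand) codes for a ubiquitin-associated protein needed to form stress granules. It was the most abundant of the 7. The AMO1 libraries had 260, 249 and 277 CPM under SCR and 434, 396 and 428 CPM under gN1E. The H929 libraries had 264, 289 and 256 CPM under SCR and 505, 505 and 469 CPM under gN1E. The LP1 libraries had 429, 448 and 472 CPM under SCR and 606, 634 and 641 CPM under gN1E. The LP1 libraries labelled SCR reached the level of the AMO1 libraries labelled gN1E. Its log2 fold change was 0.68 (SE 0.0567) in AMO1, 0.86 (SE 0.0514) in H929 and 0.50 (SE 0.0505) in LP1.

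TTC27 (ENSG00000018699.13, chromosome 2, 32628032 to 32821051, plus strand) codes for a tetratricopeptide repeat protein that works with HSP90 and the R2TP complex in assembling the U5 small nuclear ribonucleoprotein of the spliceosome. It has the longest gene body of the 7. Levels in AMO1 were 16.5, 16.0 and 17.5 CPM under SCR and 36.3, 37.1 and 38.1 CPM under gN1E. In H929 they were 15.7, 16.4 and 15.7 CPM under SCR and 38.6, 43.4 and 38.9 CPM under gN1E. The SCR level was nearly the same in these lines, and each gN1E library lay far above it. In LP1 the level was 12.7, 10.9 and 14.0 CPM under SCR and 20.2, 16.6 and 16.2 CPM under gN1E, a narrower gap. TTC27 had a log2 fold change of 1.16 (SE 0.0721) in AMO1, 1.32 (SE 0.0629) in H929 and 0.52 (SE 0.101) in LP1.

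STAMBP (ENSG00000124356.17, chromosome 2, 73828916 to 73873659, plus strand) codes for a deubiquitinase, also called AMSH, that trims ubiquitin chains from cargo at the ESCRT machinery of endosomes. Its level in AMO1 was 52.9, 49.7 and 49.6 CPM under SCR and 75.9, 77.1 and 75.7 CPM under gN1E. In H929 it was 47.3, 47.9 and 47.5 CPM under SCR and 76.8, 76.1 and 74.1 CPM under gN1E. Both lines had almost the same levels at each label. In LP1 it was 24.5, 26.7 and 26.0 CPM under SCR and 30.7, 31.2 and 29.6 CPM under gN1E, lower at either label than in the other lines. STAMBP had a log2 fold change of 0.59 (SE 0.0593) in AMO1, 0.66 (SE 0.0508) in H929 and 0.27 (SE 0.0617) in LP1.

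RGS16 (ENSG00000143333.7, chromosome 1, 182598623 to 182604389, minus strand) codes for a regulator of G protein signalling, which speeds GTP hydrolysis by G alpha subunits. It has the shortest gene body, 5.8 kb. In AMO1 the libraries had 47.3, 45.1 and 44.5 CPM under SCR and 53.6, 56.5 and 56.0 CPM under gN1E. In H929 they had 40.3, 40.8 and 39.1 CPM under SCR and 47.1, 49.6 and 47.1 CPM under gN1E. In LP1 they had 87.2, 88.0 and 79.0 CPM under SCR and 97.6, 110 and 99.5 CPM under gN1E. The labels were set apart by a small step in each line. The log2 fold changes, 0.28 (SE 0.0620) in AMO1, 0.25 (SE 0.0536) in H929 and 0.29 (SE 0.0543) in LP1, lay within 1 standard error of each other.

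COLQ (ENSG00000206561.14, chromosome 3, 15450133 to 15521751, minus strand) codes for the collagen tail that anchors acetylcholinesterase in the basal lamina of the neuromuscular junction. It had the fewest reads of the 7, between 95 and 475 counts per library. Its level in AMO1 was 4.17, 4.48 and 4.02 CPM under SCR and 9.47, 9.21 and 9.07 CPM under gN1E. In H929 it was 3.18, 2.55 and 2.52 CPM under SCR and 6.18, 6.04 and 6.38 CPM under gN1E. The LP1 libraries had 3.71, 2.66 and 3.36 CPM under SCR and 5.25, 5.73 and 5.65 CPM under gN1E. The gN1E libraries were highest in AMO1, and the SCR libraries of H929 and LP1 overlapped each other. The log2 fold change was 1.13 (SE 0.113) in AMO1, 1.15 (SE 0.124) in H929 and 0.79 (SE 0.131) in LP1, and the last was the largest of the 7 genes in LP1.

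CLMN (ENSG00000165959.12, chromosome 14, 95181940 to 95319908, minus strand) codes for calmin, a membrane protein with calponin homology domains. Its level in AMO1 was 7.09, 6.32 and 5.86 CPM under SCR and 15.1, 15.1 and 11.2 CPM under gN1E. In H929 it was 8.63, 8.36 and 8.55 CPM under SCR and 22.2, 21.5 and 21.9 CPM under gN1E. In LP1 it was 41.4, 44.7 and 43.3 CPM under SCR and 53.5, 57.4 and 59.4 CPM under gN1E. In AMO1 one gN1E library lay below the other two but still above all SCR libraries. The log2 fold change was 1.11 (SE 0.120) in AMO1, 1.35 (SE 0.0727) in H929 and 0.42 (SE 0.0569) in LP1, so that the line with the highest level had the smallest change on the log scale.

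**Figure D2:**
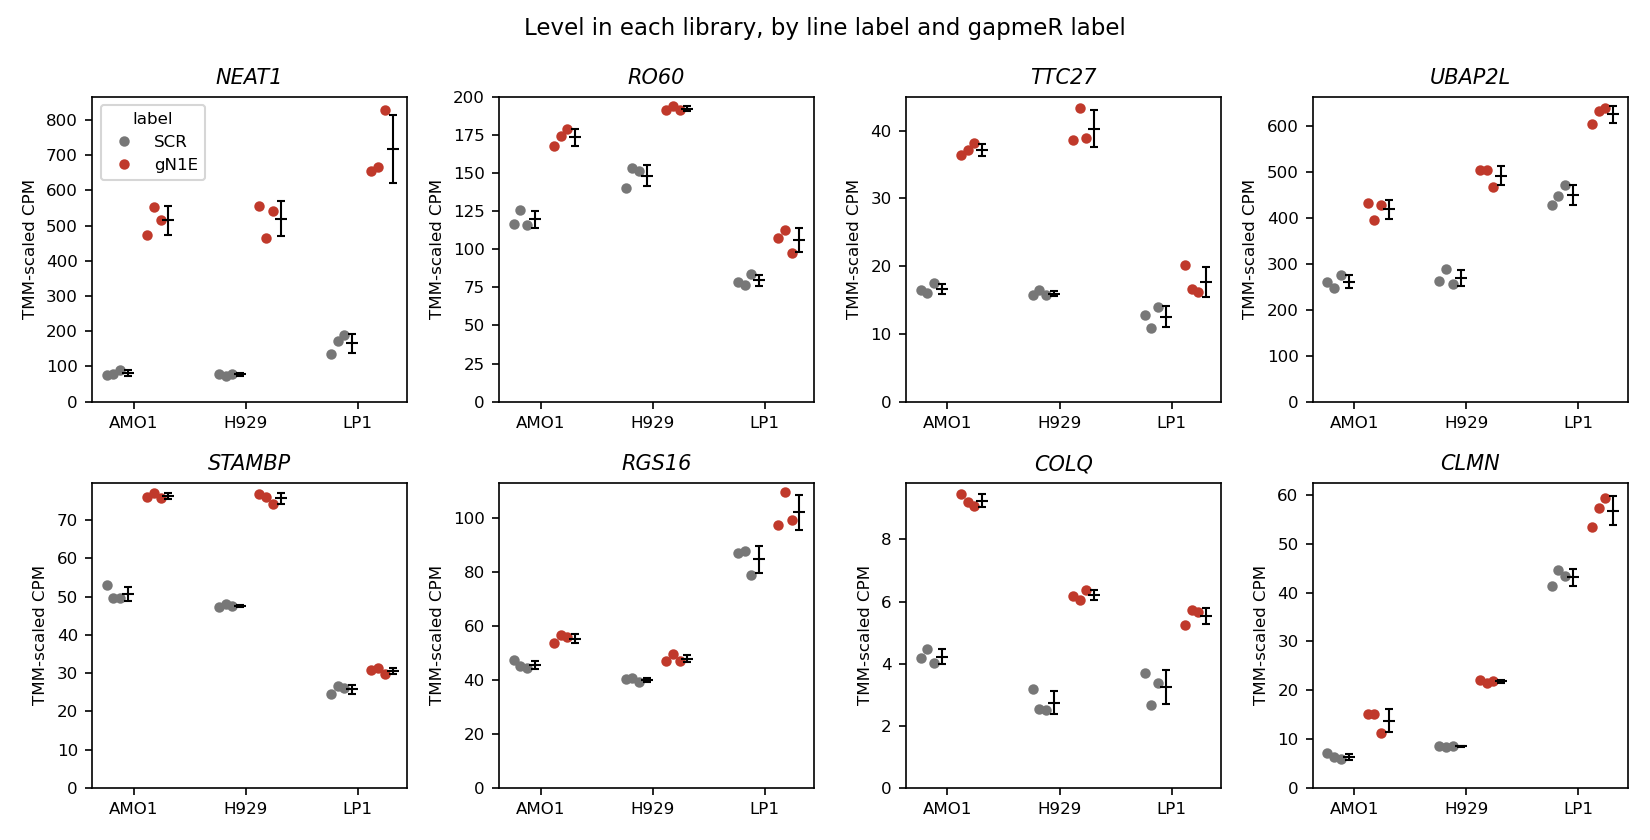
Level of NEAT1 and the 7 genes in each of the 18 libraries, as TMM-scaled CPM on a linear y axis from 0, against the line label, with grey points for SCR, red points for gN1E and black bars for the mean ± SD of 3 libraries. In every panel and line the red points lie above the grey ones, with CLMN, RGS16 and UBAP2L highest in LP1 and STAMBP, RO60 and TTC27 lowest there.

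Across the 7 genes the median log2 fold change was 0.68 (range 0.28 to 1.16) in AMO1, 0.86 (range 0.25 to 1.35) in H929 and 0.43 (range 0.27 to 0.79) in LP1. Over all tested genes the median was -0.02, -0.01 and 0.00. As a share of the gN1E level, the SCR libraries had between 17.7% and 55.2% less of these RNAs in AMO1, between 15.6% and 60.7% less in H929 and between 16.9% and 42.2% less in LP1. Under SCR in AMO1 the mean level per kb of annotated exon was 34.9 CPM for UBAP2L, 19.0 CPM for RGS16, 13.2 CPM for RO60, 4.84 CPM for TTC27, 2.81 CPM for STAMBP, 0.458 CPM for COLQ and 0.409 CPM for CLMN. COLQ and CLMN, the scarcest per length, were with TTC27 the 3 genes that changed most in AMO1 and in H929.

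**Figure D3:**
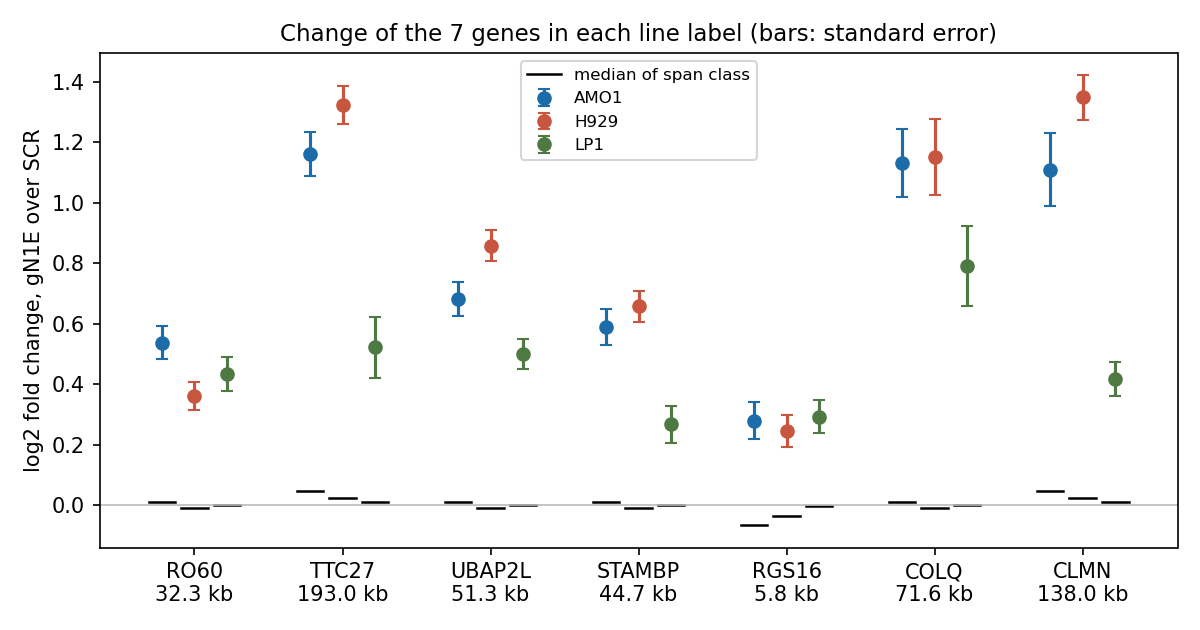
Log2 fold change (gN1E over SCR, y axis) of the 7 genes in each line label, with bars for the standard error and short black lines for the median of all genes of the same span class, and the genomic span of each gene in kb under its symbol. The values run from 0.25 for RGS16 in H929 to 1.35 for CLMN in H929, and only RGS16 and RO60 have a value in LP1 above that in H929.

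By genomic span, from the first to the last annotated base, 2 of the 7 genes are long (100 kb or more) and 5 are short. TTC27 spans 193.0 kb and CLMN 138.0 kb. COLQ spans 71.6 kb, UBAP2L 51.3 kb, STAMBP 44.7 kb, RO60 32.3 kb and RGS16 5.8 kb. The median log2 fold change of the long genes was 1.13 in AMO1, 1.33 in H929 and 0.47 in LP1, against 0.59, 0.66 and 0.43 for the short ones. In H929 the order of the changes followed the order of the spans except that CLMN and TTC27 were exchanged, with values closer than their standard errors. In AMO1 it did so except that COLQ and CLMN were exchanged. In LP1 this order was not seen, since COLQ had the largest change and STAMBP the smallest. Over 5 genes against 2 chosen on this contrast, the difference is a description of these genes.

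The other genes gave the background for this contrast of short with long. In AMO1 their median log2 fold change was -0.07 under 10 kb, -0.03 from 10 to 30 kb, 0.01 from 30 to 100 kb, 0.05 from 100 to 300 kb and 0.12 over 300 kb. The share called higher under gN1E in the edgeR test with an adjusted p under 0.05 went from 0.355% under 10 kb to 1.69% from 30 to 100 kb, 5.1% from 100 to 300 kb and 14.5% over 300 kb. In H929 the medians ran from -0.04 under 10 kb to 0.12 over 300 kb, and the same shares were 1.06%, 4.24%, 9.58% and 20.1%. In LP1 the medians were close to 0 up to 300 kb, from -0.02 to 0.01, and 0.04 over 300 kb. There the same shares were 0.197%, 0.749%, 0.879% and 4.87%. The 7 genes, chosen for being higher under gN1E, lay above the median of their span class by construction, by between 0.35 (RGS16) and 1.12 (COLQ) in AMO1 and between 0.27 (STAMBP) and 0.79 (COLQ) in LP1. Of the 61 genes called with NEAT1 in every line, 29 were short and 32 long, so that 47.5% were short against 86.0% of the genes tested in all 3 lines. The 7 genes were picked from the 61, so nothing is read from their own count of 5 short genes.

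**Figure D4:**
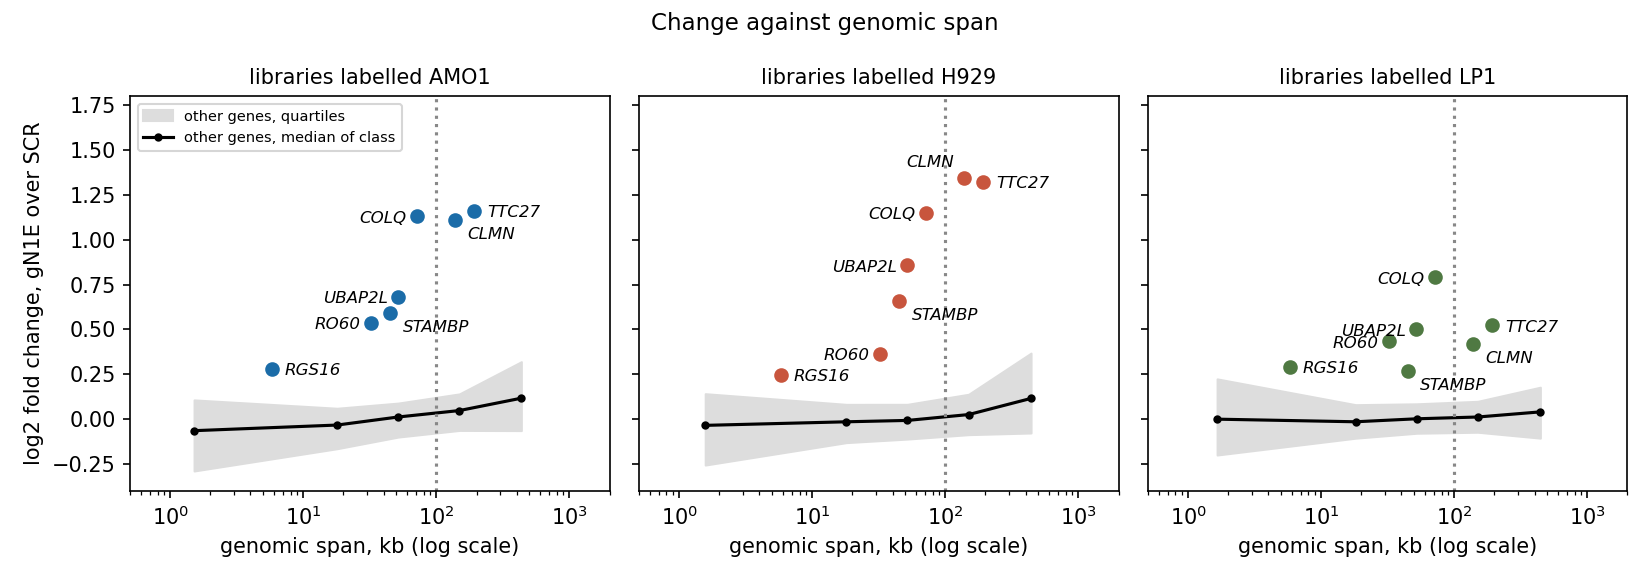
Log2 fold change (gN1E over SCR, y axis) against genomic span in kb (x axis, log scale) in the 3 line labels, with the 7 genes as coloured points, the median of all other genes in 5 span classes as a black line, their quartiles in grey and a dotted line at 100 kb. In AMO1 and H929 the 7 points climb with the span from RGS16 at 0.28 and 0.25 to COLQ, CLMN and TTC27 at over 1, and in LP1 they lie between 0.27 and 0.79 with no such order.

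The run shared with the NEAT1 stretch was set against the change in the same way, within short and within long genes at a mean of 1 CPM or more, the 7 genes and NEAT1 left out. Since the AMO1 libraries chose the stretch and the H929 libraries share a V segment with them, the LP1 values bear least on that choice. Among short genes in AMO1 the median log2 fold change was -0.03 for runs of at most 9 bases (8962 genes), 0.04 for 12 bases (206 genes) and 0.23 for 13 or more (56 genes). Among long genes it was 0.02 (205 genes), 0.11 (259 genes) and 0.23 (111 genes). Since these AMO1 values helped to pick the stretch, the climb with the run is in part a consequence of that choice. In LP1 the medians at 13 or more bases were 0.08 in 60 short genes and 0.10 in 120 long genes, against -0.01 and 0.00 at no more than 9 bases. At 12 bases they were 0.03 in 200 short genes and 0.02 in 295 long genes. The long genes had 0.03 at 11 bases, so their climb with the run was not steady. The share called higher at 13 or more bases was 35.7% of short and 39.6% of long genes in AMO1, and 5% and 13.3% in LP1. At 12 bases the LP1 shares were 5.5% and 5.08%.

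Set beside these medians, TTC27, COLQ and STAMBP belong to the class with the longest runs. The 7 genes lay above the class medians as a result of how they were chosen, so their distance from them is a description. UBAP2L and CLMN, with 12 bases, changed by 0.68 and 1.11 in AMO1 where the class median was 0.04 for short and 0.11 for long genes. RO60 and RGS16, with 10 and 9 bases, changed by 0.54 and 0.28 in AMO1. Among the 61 genes called in every line, 33 had a run of 12 bases or more, 12 of the 29 short and 21 of the 32 long genes. Such a run was found in 1.79% of short and 15.9% of long genes tested in all 3 lines. Without the 7 the counts were 9 of 24 short and 19 of 30 long genes, but these other genes took part in scoring the windows, so their long runs are in part a consequence of that choice. Whether the shared runs play a part in the changes was not tested.

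**Figure D5:**
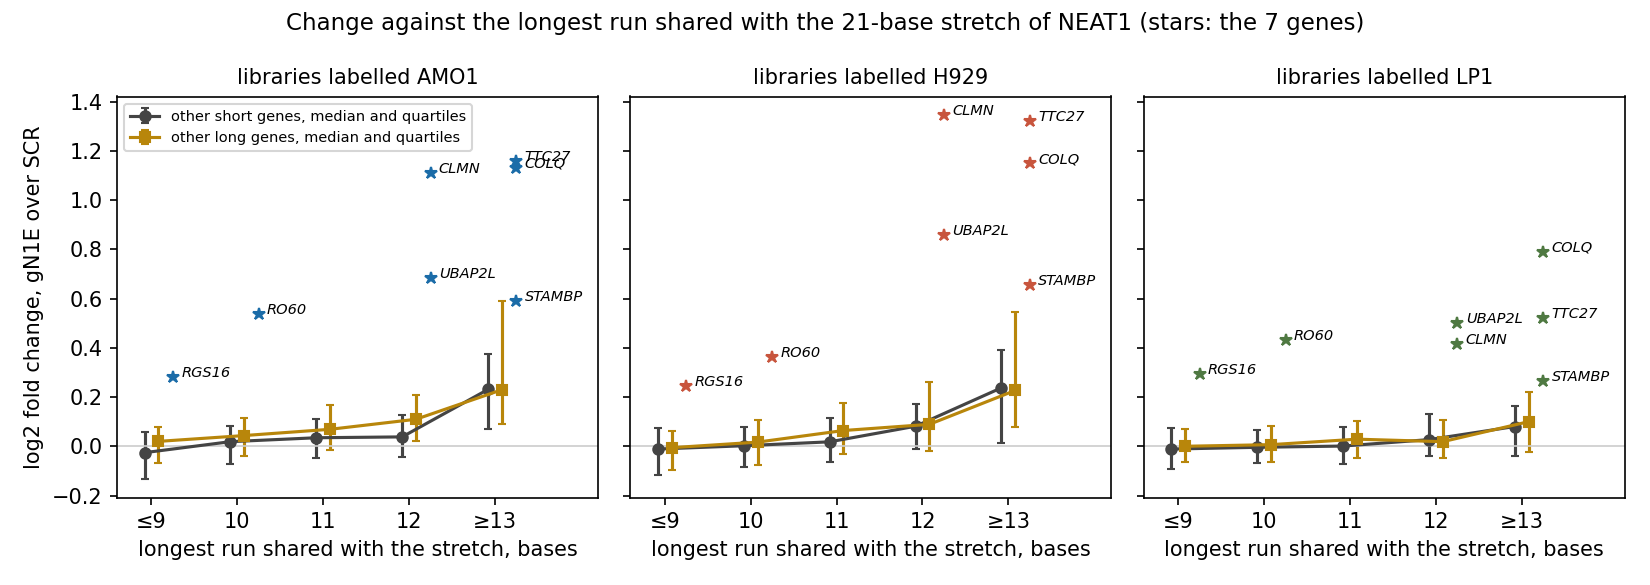
Log2 fold change (gN1E over SCR, y axis) against the longest run in bases shared with the 21-base stretch of NEAT1 (x axis, classes from at most 9 to at least 13), with the median and quartiles of other short genes (grey circles) and long genes (ochre squares) and the 7 genes as stars. At 13 or more bases in AMO1 both medians are 0.23, while STAMBP lies at 0.59 and COLQ and TTC27 above 1.1.

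The level of each gene between the lines, as the mean of both labels, was not used to choose the genes and was tested in a joint edgeR fit of the 18 libraries over 26436 genes with Benjamini-Hochberg adjustment. Between LP1 and AMO1 all 7 genes differed, where 75.9% of all genes did. CLMN was higher in LP1 by 2.39 on the log2 scale (SE 0.0595, adjusted p = 1.3e-27), RGS16 by 0.89 (SE 0.0395, adjusted p = 2.56e-20) and UBAP2L by 0.68 (SE 0.0385, adjusted p = 2.46e-17). STAMBP was lower in LP1, at -1.15 (SE 0.0377, adjusted p = 3.91e-24), as were TTC27 at -0.74 (SE 0.0584, adjusted p = 1.92e-13), RO60 at -0.65 (SE 0.0384, adjusted p = 8.35e-17) and COLQ at -0.56 (SE 0.0846, adjusted p = 3.79e-07). For CLMN, RGS16, STAMBP and RO60 the 6 libraries of LP1 did not overlap the 6 of AMO1 at all.

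Between H929 and AMO1, 5 of the 7 genes differed, where 44.4% of all genes did. COLQ was lower in H929, at -0.59 (SE 0.0852, adjusted p = 4.81e-07 in the joint edgeR fit), and RGS16 at -0.20 (SE 0.0398, adjusted p = 0.000103). CLMN was higher, at 0.53 (SE 0.0616, adjusted p = 7.74e-09), as were RO60 at 0.23 (SE 0.0380, adjusted p = 5.86e-06) and UBAP2L at 0.14 (SE 0.0384, adjusted p = 0.00344). The UBAP2L call was lost in the SCR libraries alone (0.06, adjusted p = 0.523 from edgeR). For TTC27 the difference was 0.03 (SE 0.0571, adjusted p = 0.755) and for STAMBP -0.05 (SE 0.0365, adjusted p = 0.274), and neither passed the threshold.

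Between LP1 and H929, 6 of the 7 differed, where 74.6% of all genes did. The largest differences were those of CLMN at 1.86 (SE 0.0575), STAMBP at -1.10 (SE 0.0376) and RGS16 at 1.09 (SE 0.0396), while that of COLQ was 0.03 (SE 0.0871, adjusted p = 0.738 in the joint edgeR fit). The order of the lines was thus LP1, H929, AMO1 from high to low for CLMN and UBAP2L, LP1, AMO1, H929 for RGS16, and H929, AMO1, LP1 for RO60. TTC27 and STAMBP were lowest in LP1, with no call between H929 and AMO1. COLQ had AMO1 above H929 and LP1, which did not differ beyond their spread.

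The genes known to work with the 7 were examined in 7 lists, with the members left out. In AMO1, 5 of the 108 list genes tested were higher under gN1E and 2 lower, in H929 9 of 116 were higher and 4 lower, and in LP1 0 of 114 were higher and 4 lower. In LP1 the edgeR test gave 24 list genes an unadjusted p under 0.05 in either direction, and limma-voom called 3 and DESeq2 6. Of all genes, 1.64% were called higher and 0.419% lower in AMO1, 3.7% and 1.77% in H929, and 0.656% and 0.777% in LP1. With the replicate letter as a block, which the AMO1 letters support, 15 list genes were called in AMO1, beside 776 higher and 618 lower genes over all (2.69% lower). The median log2 fold change over the lists was 0.02 in AMO1, 0.01 in H929 and -0.03 in LP1, close to 0 like that of all genes.

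Of the partners of RO60, HNRNPK, which codes for an RNA-binding protein of the hnRNP family, was the single one called higher of 11 tested. Its log2 fold change was 0.31 (SE 0.0504, adjusted p = 0.000937 in edgeR's test) in AMO1 and 0.33 (SE 0.0490, adjusted p = 3.19e-05) in H929, with 0.06 (SE 0.0479, adjusted p = 0.625) in LP1. RNY1, a Y RNA that RO60 binds, was lower in LP1 at -0.54 (SE 0.0792, adjusted p = 0.000735 in edgeR's test), while its values of -0.02 in AMO1 and -0.46 in H929 had standard errors of 0.571 and 0.713. Y RNAs have many near-identical copies in the genome, so this count is uncertain.

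Of 28 genes of the ESCRT machinery that STAMBP works with, IST1, which codes for an ESCRT-III subunit, rose with NEAT1 in AMO1 (0.23, SE 0.0525, adjusted p = 0.0206 in edgeR's test) and H929 (0.21, SE 0.0464, adjusted p = 0.00447). IST1 is in the study's target list, so it is not independent evidence. CHMP2B, also an ESCRT-III subunit, was lower in H929 (-0.18, SE 0.0530, adjusted p = 0.0467 in edgeR's test). In LP1 edgeR called 0 of the 28, with 3 at an unadjusted p under 0.05, and limma-voom and DESeq2 called 0.

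Of 19 stress granule genes, NUFIP2 was higher under gN1E in AMO1 (0.24, SE 0.0543, adjusted p = 0.0203 in edgeR's test) and H929 (0.23, SE 0.0473, adjusted p = 0.00211). ATXN2L (0.21), USP10 (0.18) and PRRC2C (0.17), which code for further stress granule proteins, were higher in H929 with adjusted p-values of 0.0129, 0.0336 and 0.0493 in edgeR's test. G3BP-binding USP10 and the others did not pass in LP1, where edgeR called 0 of the 19, with 2 at an unadjusted p under 0.05 and 0 calls by limma-voom and DESeq2.

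The list of RGS proteins and G alpha subunits had calls against the direction of RGS16. RGS14 was lower under gN1E in AMO1 (-0.40, SE 0.0888, adjusted p = 0.0195 in edgeR's test) and LP1 (-0.22, SE 0.0535, adjusted p = 0.0401), with -0.17 (adjusted p = 0.146) in H929. Of this list, limma-voom called 0 in AMO1 and 1 in LP1, and DESeq2 1 and 2. RGS19 was lower in LP1 (-0.30, adjusted p = 0.0136 in edgeR's test), RGS2 in H929 (-0.61, adjusted p = 0.00815) and the G alpha gene GNAI3 in H929 (-0.18, adjusted p = 0.0217). GNA11, named here because it was the single higher one, had 0.25 (adjusted p = 0.0389 in edgeR's test) in H929.

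Of the genes for acetylcholinesterase and its anchors, 5 or 6 of 11 were expressed enough to be tested. HSPG2, the basement membrane proteoglycan perlecan, was lower in AMO1 (-0.51, SE 0.127, adjusted p = 0.0364 in edgeR's test). There limma-voom called 0 genes of this list and DESeq2 1. Among 14 genes of HSP90 and R2TP assembly, to which TTC27 belongs, edgeR, limma-voom and DESeq2 each called 0 in every line. At an unadjusted p under 0.05 edgeR had 3 in AMO1, 5 in H929 and 0 in LP1. Of the calponin homology and nuclear envelope linker genes listed with CLMN, SUN1 was higher in AMO1 (0.30, SE 0.0550, adjusted p = 0.00335 in edgeR's test) and H929 (0.32, SE 0.0485, adjusted p = 4.49e-05), as was MACF1 (0.23, adjusted p = 0.0116, and 0.18, adjusted p = 0.0171). PLEC, which codes for the linker protein plectin, was lower in LP1 (-0.27, adjusted p = 0.0277 in edgeR's test).

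The genes beside the 7 were examined to see whether whole regions moved. Of 47 neighbours, the 3 nearest tested genes on each side together with those that overlap, 1 was called in each line in the edgeR fit. RASGRP3, 615.3 kb past TTC27, was higher under gN1E in AMO1 (0.26, SE 0.0590, adjusted p = 0.0214 in edgeR's test) and lower in LP1 (-0.30, SE 0.0554, adjusted p = 0.00664). IER5, 1505.7 kb from RGS16, was lower in H929 (-0.23, SE 0.0601, adjusted p = 0.0195 in edgeR's test).

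Of the 5 genes that overlap a member, EAF1 (0.06 in AMO1, -0.05 in H929 and -0.05 in LP1) and EAF1-AS1 overlap COLQ. UCHL5 (0.02, -0.02 and 0.01) and GLRX2 (0.11, -0.10 and -0.06) overlap RO60, and C1orf43 (-0.08, -0.07 and -0.09) overlaps UBAP2L. EAF1, UCHL5, GLRX2 and C1orf43 lie on the opposite strand, which the authors' counting kept apart. EAF1-AS1 lies on the strand of COLQ, at under 1 CPM on average in each group, with 0.91 (SE 0.358, adjusted p = 0.282 in edgeR's test) in AMO1, 0.62 (SE 0.371, adjusted p = 0.409) in H929 and -0.10 (SE 0.554, adjusted p = 0.965) in LP1. None of the 5 passed in any line with an adjusted p of 0.05, at smallest p-values after adjustment between 0.282 (EAF1-AS1) and 0.895.

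The genes with the most similar pattern were sought among 12919 others by the root mean square difference of the 3 log2 fold changes. For TTC27 these were NLK (difference 0.04, span 154.6 kb, run of 13 bases) and OVGP1 (0.10, 13.4 kb, 8 bases), and for CLMN they were NLK (0.11) and JAKMIP2 (0.11, 197.3 kb, 11 bases). For COLQ they were RAD51B (0.06, 910.4 kb, 11 bases) and DCC (0.13, 1195.7 kb, 13 bases). The genes nearest to STAMBP were SFSWAP (0.03, 88.7 kb, 13 bases) and HADH (0.04, 45.5 kb, 11 bases), and those nearest to RO60 were PDE4D (0.07, 1553.1 kb, 11 bases) and INSIG2 (0.08, 22.5 kb, 10 bases). RGS16 was nearest to MIR1244-2 (0.02, 0.1 kb, 7 bases) and ENSG00000239791 (0.03, 11.8 kb, 8 bases). UBAP2L was nearest to ENSG00000279342 (0.02, 3.6 kb, 9 bases), the closest match of all, and ENSG00000268333 (0.07, 2.7 kb, 8 bases). The genes given by identifier have no symbol in the table used.

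Among the 61 genes called with NEAT1 in every line, those with the largest values for their smallest log2 fold change included PTPRG (0.98), DCC (0.82), COLQ (0.79) and RAD51B (0.71). Of the 7 genes, COLQ ranked 4, TTC27 13, UBAP2L 14, CLMN 23, RO60 30, STAMBP 45 and RGS16 56 of the 61 by this measure. The genes just inside the threshold, by their highest adjusted p over the lines in edgeR's test, were HLCS (0.0437), SLC16A7 (0.0457) and IL1RAP (0.0483). Those just outside were GATD1 (0.0547), ROBO1 (0.0553) and PDSS1 (0.0586).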

How the data were processed

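The authors made stranded total RNA libraries, sequenced them as paired reads of 150 bases, aligned them to hg38 with STAR 2.7.10a, counted them by strand with featureCounts 1.6.4 on GENCODE release 43 and deposited raw counts per gene with no normalization. Of 62703 gene identifiers, 62686 matched a symbol. Libraries were grouped by their sample labels, although the tables name themselves with SCR and gN1E exchanged, and H929 and LP1 exchanged. Labels do not say that replicates were separate cultures, and p-values may then measure technical spread.

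Log2 fold changes came from edgeR 4.0.16 run in R 4.3.3 with TMM scaling, its robust quasi-likelihood test and Benjamini-Hochberg adjusted p-values (threshold 0.05). The SE is the absolute log2 value divided by the square root of the F statistic of that test. Each line was fitted alone, on genes that reached 10 reads in 1 or more of the 6 libraries. Levels and differences between lines came from a joint fit of the 18 libraries. The fits were tested on simulated data. Alternatives were limma-voom (limma 3.58.1), DESeq2 1.42.0, other scalings and filters, the replicate letter as a block, the joint fit, a threshold in the study's methods (0.1 and 1.5-fold), and leaving out libraries in turn. Counting the genes called in every line under these alternatives was added after seeing the data. Libraries with the same letter deviated together in AMO1 (correlations 0.223, 0.202 and 0.146 over 15433 genes), which pairs them, and not in each letter of H929 and LP1.

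The 7 genes, the lists and the tests were chosen with earlier results of these data known. Genes named are NEAT1, the 7, list genes called in a line (up to 4 per list), neighbours called or overlapping, the 2 genes most alike to each member, and the 5 with the largest smallest change among those called in every line. Results for 2 genes that this rule names are not reported here. Genes named for their line, cell type or nearness to the threshold are outside that rule. Gene bodies were read from hg38 and canonical transcripts from GENCODE release 44, with Python 3.11.15, numpy 2.4.6, pandas 2.3.3 and scipy 1.17.1. Figures were drawn with matplotlib 3.10.9.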

Additional observations from a re-analysis of the deposited data

Results flagged for a closer look

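The response of RASGRP3, which codes for a guanine nucleotide exchange factor for Ras and lies past TTC27, differed between lines in the interaction test of the joint edgeR fit. It was lower in LP1 than in AMO1 by -0.58 on the log2 scale (adjusted p = 1.23e-05), and lower in LP1 than in H929 by -0.44 (adjusted p = 0.000943). Both kept an adjusted p under 0.05 in each of 25 alternatives, with highest values of 0.000446 and 0.0469.

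The response of HNRNPK, from the list of RO60 partners, was lower in LP1 than in H929 by -0.30 (adjusted p = 0.0141 in the joint edgeR fit). It kept an adjusted p under 0.05 in 20 of 25 alternatives, with values between -0.34 and -0.19. It was lost with library size only (adjusted p = 0.204, the highest) and without H929 SCR A, H929 SCR C, H929 gN1E B or LP1 gN1E D. Between LP1 and AMO1 the difference was -0.26 (adjusted p = 0.0515 in edgeR's test). Its cause was not tested, nor whether the run of 16 bases that HNRNPK shares with the NEAT1 stretch plays a part.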

How the results depend on the processing

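Of 294 recomputed log2 fold changes of the 7 genes, 291 moved by less than 1 SD between libraries and 0 changed sign. The 3 others were STAMBP, RGS16 and CLMN in H929 with library size only (0.61, 0.20 and 1.30). Of 567 recomputed level differences between lines, 561 kept their direction and side of the threshold. The difference of TTC27 between H929 and AMO1, which did not pass, changed sign in the SCR libraries alone (-0.0502) and ran from -0.0016 to 0.0451 with 1 library left out. That of COLQ between LP1 and H929, which did not pass either, was -0.16 in the gN1E libraries alone, -0.16 with library size only and between -0.0225 and 0.0970 with 1 library left out. With an adjusted p under 0.1 and a fold change of 1.5, 1 of the 7 levels was called between H929 and AMO1.

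The counts of calls depended on the settings, and the cause was not tested. Of the 7 genes, STAMBP, TTC27 and RGS16 each dropped out of the genes called in every line under some of them, STAMBP also with the replicate block. Without the filter on low counts, 808 genes were called in AMO1 (473 in the report's setting) and 700 in LP1 (332). In LP1 this setting gave 8 list genes and 2 neighbours. With the replicate block there were 1394 genes and 15 list genes in AMO1, against 7. The letters of H929 do not pair its libraries. In LP1 only letter A deviated together (correlation 0.191), and B (-0.00138) and D (-0.0562) did not. In these lines the block gave 931 genes (1286 without it) and 8 list genes in H929 and 243 genes in LP1. It changed no call of the levels of the 7 genes. With an adjusted p under 0.1 and a fold change of 1.5, 176, 369 and 102 genes were called in AMO1, H929 and LP1, with 0, 1 and 0 list genes and 0, 0 and 0 neighbours. The joint fit gave 8 list genes and 0 neighbours in H929, and 1 list gene and 2 neighbours in LP1. With CPM of at least 1 in 3 libraries 2 list genes were called in LP1. Library size only gave 0 neighbours in AMO1, DESeq2 2 in H929 and 2 in LP1, and limma-voom 2 in LP1.

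With 1 library left out, the genes called numbered between 254 and 606 in AMO1, 701 and 1272 in H929 and 87 and 780 in LP1. They moved by over 1.5 times without AMO1 SCR D, gN1E C or gN1E D, without H929 SCR A or gN1E B, and without any of the LP1 libraries. The list genes called numbered between 2 and 7, 6 and 11, and 1 and 9, and the neighbours between 0 and 1, 0 and 2, and 0 and 1. The list genes moved by over 1.5 times without AMO1 SCR A, SCR D, gN1E C or gN1E D, without H929 SCR A, SCR C, gN1E A or gN1E B, and without any LP1 library. The genes called with NEAT1 in every line, 61 in the report, numbered between 30 and 88, and between 53 and 81 under the other alternatives. The NEAT1 log2 fold change in LP1 stayed between 2.00 and 2.25. The gap of the median log2 change between long and short genes was 0.07 in AMO1 and 0.05 in H929, and by summed exon length, at 5 kb or more, 0.0409 and 0.0253. In LP1 it was 0.03 by either length. The LP1 libraries alone gave a best window that starts at base 3807 of NEAT1 in place of 3080.

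Read counts limit COLQ most, at 95 counts in its lowest library. A single gapmeR was used, so its own sequence effects and the level of NEAT1 cannot be told apart.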
